A study of Mus musculus with 6 samples.

Results

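The acinar cells that make up most of the exocrine pancreas keep their identity through a small set of transcription factors, and 7 of these genes (Ptf1a, Rbpjl, Rbpj, Bhlha15, Nr5a2, Gata4 and Gata6) were followed here in bulk RNA sequencing of mouse pancreas. The genes were chosen by name, and all 7 were found among the 22556 genes with values. Samples came from 8-week-old wild type C57BL/6 mice, with 2 samples in each of 3 groups. The saline group received saline, the AP group received the secretagogue caerulein (spelled cerulein in the labels) to induce acute pancreatitis (AP), and the polyI:C+AP group received the double-stranded RNA analog polyI:C, a ligand of Toll-like receptor 3, before caerulein. The methods name male animals that were fasted and then given repeated intraperitoneal injections, with the pancreas taken on the following day, and the interval between polyI:C and caerulein is not given for the sequenced samples. There was no sequenced group with polyI:C alone, so an effect of polyI:C could be read only on top of caerulein. The labels number the replicates without naming animals, so the p-values measure the spread between these samples, which may be technical.

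Ptf1a is a basic helix-loop-helix (bHLH) protein that pairs with an E protein and binds a bipartite DNA site together with Rbpjl or its paralog Rbpj. This trimer, PTF1, drives the genes of the digestive enzymes in the adult acinar cell, where Rbpjl is the usual partner, while Rbpj is made in nearly all cells and is also the DNA-binding subunit of Notch signaling. Bhlha15 (Mist1) is a bHLH factor of secretory cells that scales up the exocytosis machinery, Nr5a2 is an orphan nuclear receptor that acts with PTF1 on enzyme genes, and Gata4 and Gata6 are zinc finger proteins needed for pancreas growth and acinar maintenance. Loss of acinar factors is a known feature of acinar cells under injury, when they take on traits of duct cells.

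The promoter sequences of the factors that differed most between groups, and of their regulator Ptf1a, are shown because these factors are known to bind one another's genes. RefSeq promoter windows (assembly GRCm38.p6) were held for 5 of the 7 genes, and not for Gata4 and Gata6. The 250 bases before each start were searched on both strands for the E boxes CACCTG and CAGCTG, the Rbpj core TGGGAA, the Nr5a2 site CAAGGTCA and the GATA site AGATAA. Capitals mark matches, read along the strand of the gene, so that CAGGTG is CACCTG on the other strand.
Rbpjl, chr2:164402944-164403140, plus strand: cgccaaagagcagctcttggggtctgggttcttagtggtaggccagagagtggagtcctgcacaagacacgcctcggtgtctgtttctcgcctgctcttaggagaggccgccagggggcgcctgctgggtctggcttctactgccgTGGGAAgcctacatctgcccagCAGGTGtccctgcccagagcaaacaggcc
Bhlha15, chr5:144190036-144190285, plus strand: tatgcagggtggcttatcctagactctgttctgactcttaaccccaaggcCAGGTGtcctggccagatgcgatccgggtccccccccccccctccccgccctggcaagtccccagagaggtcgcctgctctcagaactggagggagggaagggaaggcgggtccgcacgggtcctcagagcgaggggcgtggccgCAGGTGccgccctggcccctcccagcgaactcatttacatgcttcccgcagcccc
Ptf1a, chr2:19445413-19445662, plus strand: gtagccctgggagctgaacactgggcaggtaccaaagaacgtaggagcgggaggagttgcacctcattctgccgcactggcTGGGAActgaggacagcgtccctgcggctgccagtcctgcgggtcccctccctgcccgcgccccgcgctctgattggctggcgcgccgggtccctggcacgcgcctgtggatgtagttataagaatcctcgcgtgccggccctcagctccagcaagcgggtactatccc
The Rbpjl window held CAGGTG at 82 bases and TGGGAA at 104 bases upstream of the RefSeq start, with 16 bases between them, and an AGATAA at 31 bases that lies in the annotated gene and is not printed. The Bhlha15 window held CAGGTG at 200 and at 55 bases upstream and no TGGGAA, and the Ptf1a window held TGGGAA at 169 bases upstream and neither E box. CACCTG was found in 17.2% of 32851 windows of the same length, TGGGAA in 21.6%, AGATAA in 9.99%, CAGCTG in 13.0% and CAAGGTCA in 1.33%. A window with both CACCTG and TGGGAA made up 3.91% of all windows, and Rbpjl was not the only member with such a window. An Rbpj window, not printed, held CACCTG at 212 bases and TGGGAA at 149 and 65 bases upstream, with 57 and 141 bases between them. Nr5a2 windows, not printed, held CACCTG at 66 bases upstream and, before another start, AGATAA at 217 and 200 bases upstream. CAGCTG and CAAGGTCA were not found in the windows of the 5 genes.

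Values were TPM (transcripts per 1000000), a level per length that has the same total over the listed genes in every sample. Comparisons of levels between genes depend on the length used for each gene, which is not given in the sources used here. Annotated exons covered 12750 bases for Rbpj and 1508 bases for Ptf1a. Depth over the listed genes was estimated from the spacing of low TPM values. It lay between 3297142 and 3962058 reads in the saline samples and between 6900149 and 10826795 reads in the other 4. The smallest estimated count behind a member was 73 reads, for Ptf1a in saline replicate 2. One library stood apart. Replicate 2 of the polyI:C+AP group held transcripts of intestinal epithelium: 13 intestinal genes, listed after the values were seen, summed to 4210 TPM there against between 5.86 and 22.7 TPM in the other 5 samples, and the intestinal homeobox genes Cdx1 and Cdx2 were at 10.7 and 14.6 TPM there and listed at 0 elsewhere. Gata4, Gata6 and Nr5a2 are also transcribed in intestinal epithelium, so the fold change of each member in the polyI:C+AP group is given with and without this library. In every fit that leaves out a library, a group of 1 remaining sample is assumed to vary like the other groups, which supply the spread. Its part in the results with both libraries was not tested.

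**Figure D1:**
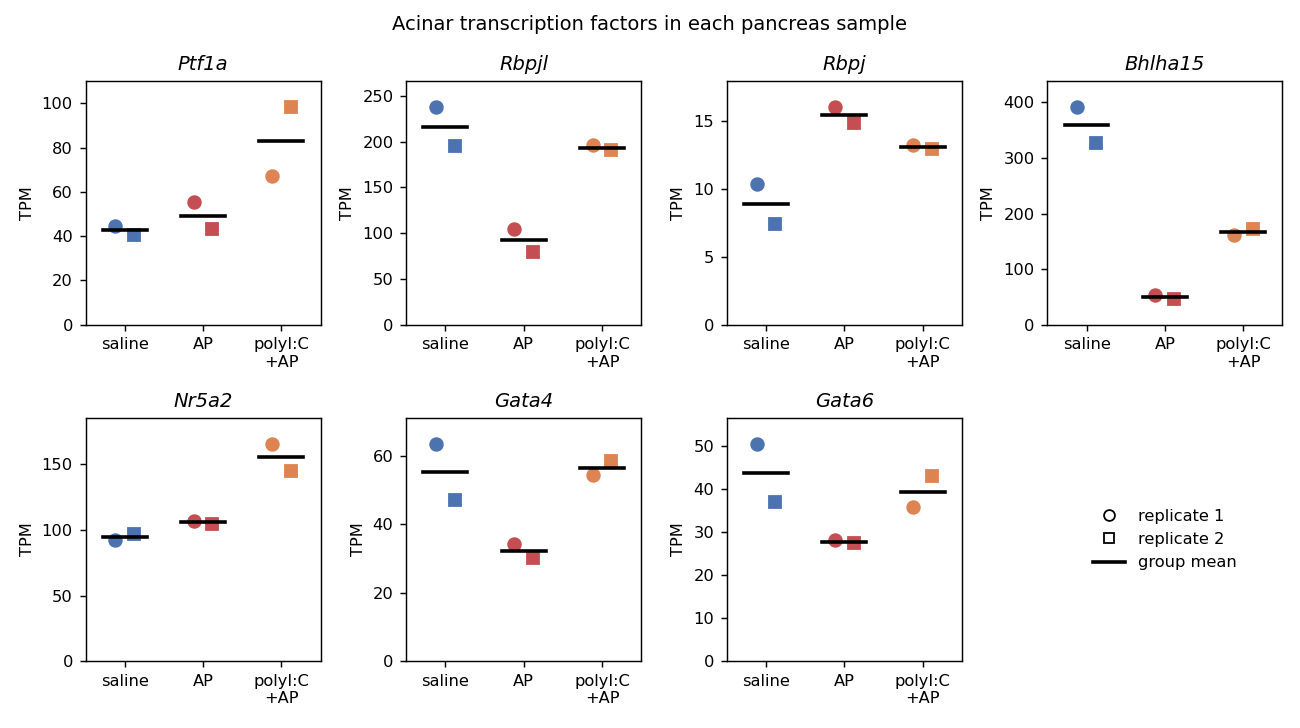
Level of each acinar factor in TPM (y axis) in the saline, AP and polyI:C+AP groups (x axis), with a circle for replicate 1, a square for replicate 2 and a bar for the group mean. Bhlha15 and Rbpjl were lowest in both AP samples and higher in both polyI:C+AP samples, while Ptf1a and Nr5a2 were highest in the polyI:C+AP samples.

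The first question was how the factors differed between inflamed and control pancreas. In AP samples the transcripts of Bhlha15 and Rbpjl fell, those of Gata4 and Gata6 were lower by less than 2-fold, Rbpj was higher by less than 2-fold, and Ptf1a and Nr5a2 were not called. A gene was called higher or lower when limma on log2(TPM + 0.5) gave an adjusted p of at most 0.05 over the 16778 genes tested and a change of at least 2-fold. By this rule 2 of the 7 members fell and 0 rose in AP, against 4.03% of all tested genes that fell and 18.2% that rose (22.2% in either direction). Both AP samples lay above both saline samples for 2 members and below them for 4, where 52.7% and 16.4% of all tested genes did so. The median log2 fold change of the members was -0.63, beside a median of 0.45 over all tested genes. TPM values are relative to the total of each sample. Scaling the samples by the median of ratios, which brought the median of all genes to 0.05, gave each member a lower value against saline, and 4 members then passed. Less RNA of a factor per cell and fewer cells of the type that makes it cannot be told apart in these bulk samples.

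Bhlha15 (ENSMUSG00000052271, GRCm38 chromosome 5, 144190286 to 144194441, plus strand) had the highest level of the 7 in saline samples, 391 and 326 TPM, and stood at 53.6 and 46.4 TPM in AP samples. The mean went from 359 ± 46.2 TPM (SD, n = 2) to 49.99 ± 5.08 TPM (SD, n = 2), which is 13.9% of the saline level. The log2 fold change was -2.83 ± 0.12 (SE, limma adjusted p = 3.75e-05), and with median-of-ratios scaling it was -3.26. No other member moved as far in any of the 3 comparisons.

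The transcripts of the paralogous PTF1 subunits lay on opposite sides of their saline levels. Rbpj is made in nearly all cells, so bulk levels of these genes do not give the make-up of PTF1 in acinar cells. Rbpjl (ENSMUSG00000017007, chromosome 2, 164403141 to 164415448, plus strand) measured 238 and 195 TPM in saline samples and at 104 and 79.8 TPM in AP samples. Its log2 fold change was -1.23 ± 0.15 (SE, limma adjusted p = 0.00116), a fall of 2.35-fold. Rbpj (ENSMUSG00000039191, chromosome 5, 53466152 to 53657362, plus strand) measured 10.4 and 7.44 TPM in saline samples and at 16.0 and 14.9 TPM in AP samples. Its log2 fold change of 0.78 ± 0.16 (SE, limma adjusted p = 0.00925) was under 2-fold, and with median-of-ratios scaling it was 0.37 (limma adjusted p = 0.129). A share of 8.14% of the 100-base stretches of Rbpj transcripts also occurs in the pseudogene Rbpj-ps3, where reads could be split. Without saline replicate 1 the log2 fold change of Rbpj was 1.006 (limma adjusted p = 0.00377), past the threshold.

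The ratio of Rbpjl to Rbpj within a sample needs no scaling between samples, but is likewise one of bulk levels. Its size also depends on the lengths used for both genes. It was 22.9 and 26.2 in the saline samples, 6.51 and 5.36 in the AP samples, and 14.8 and 14.7 in the polyI:C+AP samples. The groups did not overlap, and the order was saline, polyI:C+AP, AP. On the log2 scale the mean ratio differed by -2.01 between AP and saline samples, by 1.31 between polyI:C+AP and AP samples and by -0.70 between polyI:C+AP and saline samples. Each of the 3 exact two-sided permutation tests gave p = 0.333, the smallest that 2 samples against 2 allow, and adjustment over the 3 comparisons cannot lower it.

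Ptf1a (ENSMUSG00000026735, chromosome 2, 19445663 to 19447501, plus strand), the subunit that gives PTF1 its tissue specificity, measured 44.5 and 40.8 TPM in saline samples and at 55.2 and 43.4 TPM in AP samples. The groups overlapped. The log2 fold change was 0.20 ± 0.22 (SE, limma adjusted p = 0.512) and turned to -0.23 with median-of-ratios scaling, so its direction depends on the scaling. Of the 100-base stretches of Ptf1a transcripts, 29.6% also occur in the antisense transcript Ptf1aos, and since the strand setting of the counting is not given in the sources used here, reads of these genes may not have been told apart.

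**Figure D2:**
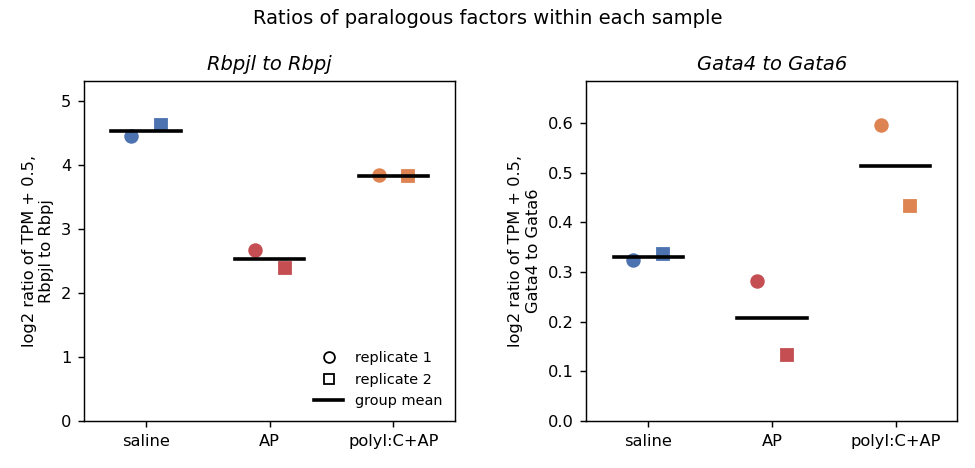
Log2 ratio of TPM + 0.5 (y axis) of Rbpjl to Rbpj and of Gata4 to Gata6 in each sample of the 3 groups (x axis), with circles and squares for replicates 1 and 2 and bars for group means. The Rbpjl to Rbpj ratio averaged 4.54 in saline, 2.52 in AP and 3.83 in polyI:C+AP samples, and the Gata4 to Gata6 ratio averaged 0.33, 0.21 and 0.51.

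Nr5a2 (ENSMUSG00000026398, chromosome 1, 136842571 to 136960448, minus strand) measured 92.4 and 97.0 TPM in saline samples and at 107 and 105 TPM in AP samples. The samples did not overlap, but the log2 fold change of 0.16 ± 0.10 (SE, limma adjusted p = 0.253) did not pass, and it was -0.27 with median-of-ratios scaling. Nr5a2 was thus one of the members whose direction between AP and saline samples depends on the scaling, the other being Ptf1a.

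Gata4 (ENSMUSG00000021944, chromosome 14, 63198922 to 63271692, minus strand) measured 63.5 and 47.0 TPM in saline samples and at 34.3 and 30.2 TPM in AP samples. Gata6 (ENSMUSG00000005836, chromosome 18, 11052064 to 11085635, plus strand) measured 50.6 and 37.2 TPM in saline samples and at 28.1 and 27.5 TPM in AP samples. Both AP samples lay below both saline samples for each gene. The log2 fold changes were -0.76 ± 0.16 for Gata4 (SE, limma adjusted p = 0.0106) and -0.63 ± 0.17 for Gata6 (SE, limma adjusted p = 0.0237), each under 2-fold. With median-of-ratios scaling both reached 2-fold, at -1.18 (limma adjusted p = 0.00237) and -1.06 (limma adjusted p = 0.00433). These paralogs kept close to each other: the log2 ratio of Gata4 to Gata6 was 0.33 and 0.34 in saline, 0.28 and 0.13 in AP and 0.59 and 0.43 in polyI:C+AP samples, with the smallest possible exact permutation p of 0.333 for each pair of groups.

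The second question was how the factors stood when polyI:C had been given before caerulein. Bhlha15 and Rbpjl rose above the AP level, by 3.31-fold and 2.11-fold, and the other members were not called. Both comparisons share the AP samples, so a low value in them moves both. By the same rule 2 of the 7 members rose and 0 fell, against 0.441% of all tested genes that rose and 0.405% that fell (0.846% in either direction). The median log2 fold change of the members was 0.73, beside 0.04 over all tested genes. Both polyI:C+AP samples lay above both AP samples for 6 members and below them for Rbpj, where 27.7% of all tested genes lay above without overlap and 22.1% below.

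Bhlha15 was at 161 and 171 TPM in polyI:C+AP samples, a mean of 166 ± 7.09 TPM (SD, n = 2) and 333% of the AP mean. Its log2 fold change was 1.73 ± 0.12 (SE, limma adjusted p = 0.00381). Without the library that held intestinal transcripts it was 1.68 (limma adjusted p = 0.237), a value of like size that no longer passed. Against saline samples Bhlha15 was still called lower, at 46.4% of the saline mean and a log2 fold change of -1.10 ± 0.12 (SE, limma adjusted p = 0.000881), and without that library it was -1.14 (limma adjusted p = 0.0173). Without saline replicate 1 the fold change against saline samples was -0.97, just under 2-fold.

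Rbpjl was at 196 and 191 TPM in polyI:C+AP samples. Its log2 fold change against AP samples was 1.08 ± 0.15 (SE, limma adjusted p = 0.0327), and 1.10 without the library that held intestinal transcripts (limma adjusted p = 0.346). Against saline samples the values overlapped, with a log2 fold change of -0.15 ± 0.15 (SE, limma adjusted p = 0.472), -0.13 without that library (limma adjusted p = 0.701) and -0.61 with median-of-ratios scaling (limma adjusted p = 0.0287). Rbpj was at 13.3 and 13.0 TPM, with a log2 fold change of -0.23 ± 0.16 against AP samples (SE, limma adjusted p = 0.616) and 0.55 ± 0.16 against saline samples (SE, limma adjusted p = 0.0361, under 2-fold). Without that library these were -0.21 (limma adjusted p = 0.859) and 0.57 (limma adjusted p = 0.141), and with median-of-ratios scaling Rbpj stood at 0.12 against saline samples (limma adjusted p = 0.637).

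The calls in this comparison rested on all 4 of its libraries. With any one of AP replicate 1, AP replicate 2, polyI:C+AP replicate 1 or polyI:C+AP replicate 2 left out, 0 members passed in limma, and the count of all genes past the threshold went from 142 to 0, 0, 67 and 0. At an unadjusted p of at most 0.05 and 2-fold, the same fits called 727, 672, 1086 and 638 genes, of which 2, 1, 2 and 2 were members. Without saline replicate 1 or saline replicate 2 Rbpjl was not called, with limma adjusted p of 0.0556 and 0.0647, and 1 member, Bhlha15, was.

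**Figure D3:**
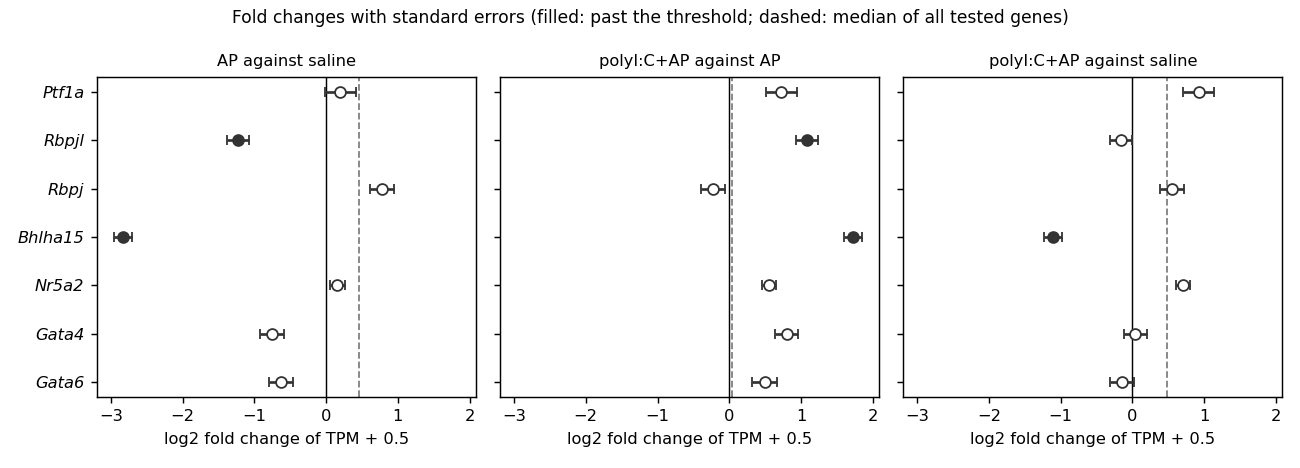
Log2 fold change of TPM + 0.5 (x axis) of each acinar factor (y axis) in the 3 comparisons, with bars for the standard error of the limma fit, filled points for members past the threshold and a dashed line at the median of all tested genes. Bhlha15 stood at -2.83, 1.73 and -1.10 and Rbpjl at -1.23, 1.08 and -0.15 in AP against saline, polyI:C+AP against AP and polyI:C+AP against saline.

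Ptf1a was at 67.3 and 98.3 TPM in polyI:C+AP samples, the widest spread of any member in this group, and the higher value came from the library that held intestinal transcripts. The log2 fold change against AP samples was 0.73 ± 0.22 (SE, limma adjusted p = 0.202), and 0.45 without that library (limma adjusted p = 0.65). Against saline samples it was 0.93 ± 0.22 (SE, limma adjusted p = 0.0156), under 2-fold, and 0.65 without that library (limma adjusted p = 0.0946). With that library as the sole polyI:C+AP sample it was 1.20 (limma adjusted p = 0.0319), past the threshold in a fit where the other groups supply the spread. With median-of-ratios scaling of all samples it was 0.47 (limma adjusted p = 0.177).

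Nr5a2 was at 165 and 145 TPM in polyI:C+AP samples, and here the library that held intestinal transcripts gave the lower value. The log2 fold change was 0.55 ± 0.10 against AP samples (SE, limma adjusted p = 0.0604) and 0.71 ± 0.10 against saline samples (SE, limma adjusted p = 0.00194), both under 2-fold. Without that library these were 0.64 (limma adjusted p = 0.285) and 0.80 (limma adjusted p = 0.0133). With median-of-ratios scaling the value against saline samples was 0.25 (limma adjusted p = 0.0954).

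Gata4 was at 54.4 and 58.4 TPM and Gata6 at 35.8 and 43.1 TPM in polyI:C+AP samples, with the higher value of each in the library that held intestinal transcripts. Against AP samples the log2 fold changes were 0.80 ± 0.16 for Gata4 (SE, limma adjusted p = 0.0817) and 0.49 ± 0.17 for Gata6 (SE, limma adjusted p = 0.262). Without that library they were 0.75 (limma adjusted p = 0.472) and 0.36 (limma adjusted p = 0.728). The values of both genes overlapped those of the saline samples, with log2 fold changes of 0.04 for Gata4 (limma adjusted p = 0.861) and -0.14 for Gata6 (limma adjusted p = 0.547). Without that library these were -0.0075 (limma adjusted p = 0.998) and -0.27 (limma adjusted p = 0.404). With median-of-ratios scaling they were -0.41 and -0.59, so the side of saline on which Gata4 stood depends on the scaling.

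Against saline samples, 1 of the 7 members, Bhlha15, was called lower in polyI:C+AP samples and 0 were called higher, where 2.99% of all tested genes were called lower and 17.0% higher (19.9% in either direction). Without overlap 3 members (Ptf1a, Rbpj and Nr5a2) lay above the saline samples and 1 below, against 54.4% and 14.0% of all tested genes. The members had a median log2 fold change of 0.04, beside 0.48 over all tested genes, and with median-of-ratios scaling these medians were -0.41 and 0.05.

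The order of the levels also differed between the groups. In saline samples it ran from Bhlha15 through Rbpjl and Nr5a2 to Gata4, then Gata6 and Ptf1a, and down to Rbpj. Gata4 was above Gata6 and Ptf1a within each saline sample, while Gata6 and Ptf1a changed places between the samples. In AP samples Nr5a2 was the highest member, above Rbpjl, with Bhlha15 next and not separated from Ptf1a. In polyI:C+AP samples Rbpjl was highest, Bhlha15 and Nr5a2 were not separated, and Ptf1a lay above Gata4 and Gata6. Rbpj had the lowest TPM of the 7 in every sample, though not the fewest estimated reads: in AP replicate 1 it had 435 against 177 for Ptf1a.

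The partners of Ptf1a include the E proteins (Tcf3, Tcf4 and Tcf12) and the Id proteins, which sequester E proteins from DNA. Of 7 such genes tested, 1 rose in AP against saline samples, where 18.2% of all tested genes rose. None was called in the comparisons with the polyI:C+AP group. The gene that rose was Id3, at 12.8 and 11.02 TPM in saline samples, 27.96 and 24.05 TPM in AP samples and 13.3 and 22.6 TPM in polyI:C+AP samples. Its log2 fold change of 1.09 in AP (limma adjusted p = 0.0227) was 0.67 with median-of-ratios scaling, under 2-fold, and the call was lost without either saline or either AP replicate. The E protein genes Tcf3 and Tcf12 had log2 fold changes of 0.81 and 0.49 in AP, under 2-fold, and the median over the 7 genes was 0.49, near the 0.45 over all tested genes. In polyI:C+AP against saline samples Tcf3 stood at 0.67 (limma adjusted p = 0.0224) and Tcf12 at 0.69 (limma adjusted p = 0.00254), under 2-fold. With median-of-ratios scaling these were 0.23 and 0.24.

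In the Notch pathway, where Rbpj is the DNA-binding subunit, 14 of 16 listed receptors, ligands, coactivators and targets were tested. In AP against saline samples 2 rose and 1 fell, in polyI:C+AP against AP samples none passed in limma, and in polyI:C+AP against saline samples 2 rose. Of all tested genes, 18.2% rose and 4.03% fell in AP, and 17.0% rose in polyI:C+AP against saline samples. The Notch target Hes1, a transcriptional repressor, was at 9.34 and 5.89 TPM in saline, 36.7 and 41.4 TPM in AP and 46.3 and 44.5 TPM in polyI:C+AP samples. It rose in both caerulein groups, with log2 fold changes of 2.32 in AP (limma adjusted p = 0.000474) and 2.53 in polyI:C+AP samples (limma adjusted p = 0.000378) against saline samples. The receptor gene Notch1 was at 50.9 and 37.6 TPM in saline, 18.2 and 15.1 TPM in AP and 32.0 and 20.3 TPM in polyI:C+AP samples, and fell in AP with a log2 fold change of -1.37 (limma adjusted p = 0.00427), a call that was lost without AP replicate 1 or AP replicate 2. The target gene Heyl had log2 fold changes against saline samples of 1.06 in AP (limma adjusted p = 0.0294), under 2-fold at 0.67 with scaling and called without saline replicate 1 but in none of the other fits with 1 sample left out, and 1.74 in polyI:C+AP samples (limma adjusted p = 0.00444). Without either replicate of the polyI:C+AP group Hes1 alone of this list was called in that group against saline samples, and Hes1 was called in both caerulein groups whichever sample was left out.

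Bhlha15 is known to drive genes of the secretory machinery, and 7 of these were tested as a list: Rab3d and Rab26, small GTPases of secretory vesicles, Gjb1, a gap junction channel, Atp2c2, a calcium pump of the secretory pathway, Tmed6 and Copz2, which serve transport between endoplasmic reticulum and Golgi, and Serpini1, a protease inhibitor. In AP against saline samples 4 of the 7 fell (Rab26, Atp2c2, Tmed6 and Copz2) and 0 rose, with a median log2 fold change of -1.005, and between 3 and 4 fell when any one sample was left out. Of all tested genes, 4.03% fell in this comparison. With median-of-ratios scaling 6 of the 7 listed genes fell, with Rab3d and Gjb1 added. The level of Tmed6 was 4618 and 4607 TPM in saline, 1114 and 1018 TPM in AP and 749 and 741 TPM in polyI:C+AP samples, with a log2 fold change of -2.11 in AP (limma adjusted p = 3.17e-05). Atp2c2 was at 33.0 and 26.3 TPM in saline, 9.52 and 8.48 TPM in AP and 3.50 and 4.52 TPM in polyI:C+AP samples, with a log2 fold change of -1.66 in AP (limma adjusted p = 0.00122). Serpini1 was higher in both AP samples than in saline samples, with a log2 fold change of 0.26 (limma adjusted p = 0.134) that turned to -0.17 with median-of-ratios scaling.

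In polyI:C+AP samples these genes did not follow the level of Bhlha15. All 7 were lower in both polyI:C+AP samples than in both AP samples, where 22.1% of all tested genes were lower without overlap, and Bhlha15 was higher. Against AP samples their median log2 fold change was -0.52, and 0 of 7 passed in limma at adjusted p and 2-fold, with Copz2 (-0.78, limma adjusted p = 0.0328) and Serpini1 (-0.88, limma adjusted p = 0.0301) past the p alone. Without the library that held intestinal transcripts the median was -0.69 and 0 passed. Against saline samples 5 of the 7 fell (Rab26, Gjb1, Atp2c2, Tmed6 and Copz2), with a median log2 fold change of -1.53, and the count was also 5 without that library and 7 with median-of-ratios scaling. Of all tested genes, 2.99% fell in this comparison. Atp2c2, at -2.74 (limma adjusted p = 0.000222), and Tmed6, at -2.63 (limma adjusted p = 1.8e-05), had the most negative log2 fold changes of the list.

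**Figure D4:**
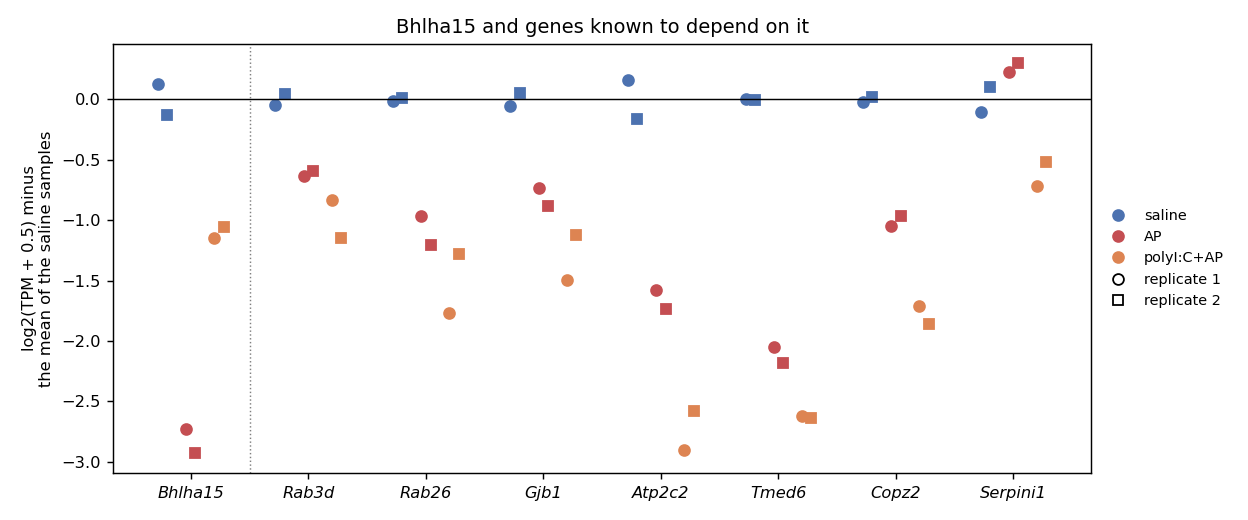
Log2(TPM + 0.5) minus the mean of the saline samples (y axis) for Bhlha15, left of the dotted line, and for 7 genes known to depend on it (x axis), with colors for the groups and circles and squares for replicates 1 and 2. Bhlha15 was higher in both polyI:C+AP samples than in both AP samples, and each of the 7 other genes was lower in them.

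Secretory products of acinar cells, which PTF1 and Nr5a2 are known to drive, were represented by 9 tested genes of a list of 28, and the other genes of that list were not analysed here. In AP against saline samples 6 of the 9 fell, where 4.03% of all tested genes did. In polyI:C+AP against saline samples 7 fell (2.99% of all), and in polyI:C+AP against AP samples 1 rose (0.441% of all). Without the library that held intestinal transcripts these counts were 5, 6 and 0. Ctrc, a chymotrypsin that also controls trypsinogen breakdown, was at 1742 and 1677 TPM in saline, 194 and 167 TPM in AP and 160 and 141 TPM in polyI:C+AP samples. Sycn, a zymogen granule protein, was at 98753 and 86866 TPM in saline, 31898 and 21348 TPM in AP and 14466 and 11044 TPM in polyI:C+AP samples. The pancreatic amylase gene Amy2a5 was the one that rose, from 22.1 and 16.9 TPM in AP to 52.6 and 57.2 TPM in polyI:C+AP samples (log2 fold change 1.48, limma adjusted p = 0.0224), and stayed below the 290 and 213 TPM of the saline samples. That call was lost without any one of the 4 libraries compared. Amy2a5 belongs to a family of near-identical copies, as do the trypsinogen and elastase genes of the list, and its values are uncertain for that reason.

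Among the cofactors, 3 of 9 listed relatives and partners of the GATA and Nr5a2 proteins were tested. Nr0b2 (SHP), a corepressor that binds Nr5a2 and is itself an Nr5a2 target, was at 31.5 and 35.7 TPM in saline, 53.3 and 46.4 TPM in AP and 82.2 and 60.0 TPM in polyI:C+AP samples. It rose in polyI:C+AP against saline samples, with a log2 fold change of 1.06 (limma adjusted p = 0.00715) that was 0.61 with median-of-ratios scaling and was not called without saline replicate 1 or polyI:C+AP replicate 1, but was called without the library that held intestinal transcripts. Zfpm1 (FOG1), which binds GATA factors, had log2 fold changes of -0.63 in AP against saline samples (limma adjusted p = 0.064), -1.05 and called lower with median-of-ratios scaling, and 0.65 in polyI:C+AP against AP samples (limma adjusted p = 0.264).

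Of 17 other transcription factors of pancreatic epithelium that were tested, 1 rose and 1 fell in AP against saline samples. In polyI:C+AP samples 1 rose against AP samples, and 1 rose and 1 fell against saline samples. Of all tested genes, 18.2% rose and 4.03% fell in AP against saline samples and 0.441% rose in polyI:C+AP against AP samples. In polyI:C+AP against saline samples 17.0% of all rose and 2.99% fell. Xbp1, the factor of the unfolded protein response that acts upstream of Bhlha15, rose in AP from 798 and 850 TPM to 1692 and 1631 TPM (log2 fold change 1.012, limma adjusted p = 0.000409), while Bhlha15 fell in the same samples. With median-of-ratios scaling the change of Xbp1 was 0.58, under 2-fold, and the call was lost without saline replicate 1 or AP replicate 1. Creb3l2, a membrane-bound factor of the secretory pathway, fell from 39.9 and 41.5 TPM in saline to 17.8 and 17.5 TPM in AP samples and was at 17.1 and 21.9 TPM in polyI:C+AP samples. The pioneer factor gene Foxa2 was at 31.0 and 32.9 TPM in saline, 20.1 and 21.8 TPM in AP and 49.7 and 41.5 TPM in polyI:C+AP samples, and rose against AP samples (log2 fold change 1.10, limma adjusted p = 0.0307), a call that was lost when any one of the 6 samples was left out. Hnf4a was called higher in polyI:C+AP against saline samples (log2 fold change 1.21, limma adjusted p = 0.0361), and its 51.8 TPM in the library that held intestinal transcripts compared with 25.4 TPM in the other replicate. The call of Hnf4a was lost without that library, and also without saline replicate 2, AP replicate 1 or AP replicate 2. With median-of-ratios scaling its log2 fold change was 0.77, under 2-fold.

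Markers of other cells moved with the groups in some lists and not in others. Of all tested genes, 18.2% rose in AP against saline samples, and 17.0% rose and 2.99% fell in polyI:C+AP against saline samples. In polyI:C+AP against AP samples 0.405% fell. The 8 duct markers, led by Epcam and Krt19, summed to 527 and 443 TPM in saline, 2633 and 2591 TPM in AP and 2334 and 2460 TPM in polyI:C+AP samples, and 5 of the 8 rose in each caerulein group against saline samples. With median-of-ratios scaling 3 rose in AP and 4 in polyI:C+AP samples, and 3 rose in AP without saline replicate 2 or AP replicate 2 and in polyI:C+AP without saline replicate 2. Of 10 tested leukocyte markers, 6 rose in AP against saline samples and 2 fell in polyI:C+AP against AP samples, with sums of 108 and 53.1, 278 and 312, and 106 and 86.1 TPM in saline, AP and polyI:C+AP samples. The 6 became 4 with median-of-ratios scaling, 2 without AP replicate 2 or polyI:C+AP replicate 1 and 3 without polyI:C+AP replicate 2, and the 2 that fell became 0 without any one of the 4 libraries compared and 4 without either saline library. The leukocyte markers did not all move alike. Mean levels in AP and polyI:C+AP samples were 70.7 and 19.7 TPM for Adgre1 and 76.8 and 13.9 TPM for Tyrobp. For S100a8 they were 7.79 and 8.90 TPM, and for S100a9 19.4 and 14.7 TPM. Bhlha15, Rbpjl, Gata4 and Gata6 were lowest in the AP samples, where the leukocyte sum was highest. The duct sum was about as high in the polyI:C+AP samples as in the AP samples. Fibroblast sums ranged from 630 to 969 TPM, and 4 of 7 markers rose in AP and 3 in polyI:C+AP against saline samples. The 4 became 2 without AP replicate 1 or AP replicate 2, and the 3 became 0 without either polyI:C+AP library, 1 without saline replicate 2, 5 without saline replicate 1 and 1 with median-of-ratios scaling, which also called 1 lower in each group. Islet sums ranged from 1315 to 2350 TPM with 1 of 10 markers lower in polyI:C+AP against saline samples, a count that was 4 with median-of-ratios scaling and 0 in 5 of the 6 fits with 1 sample left out. Sums of endothelial, mesothelial and adipocyte markers stayed between 54.9 and 79.1, between 28.1 and 81.4 and between 8.78 and 32.3 TPM, with none of their tested genes past the limma threshold. No duct, islet, fibroblast, endothelial or mesothelial marker was at 0 in any sample, the T cell gene Cd3e was listed at 0 or below 0.35 TPM in all of them, and the part of these cells in the values of the factors was not tested.

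**Figure D5:**
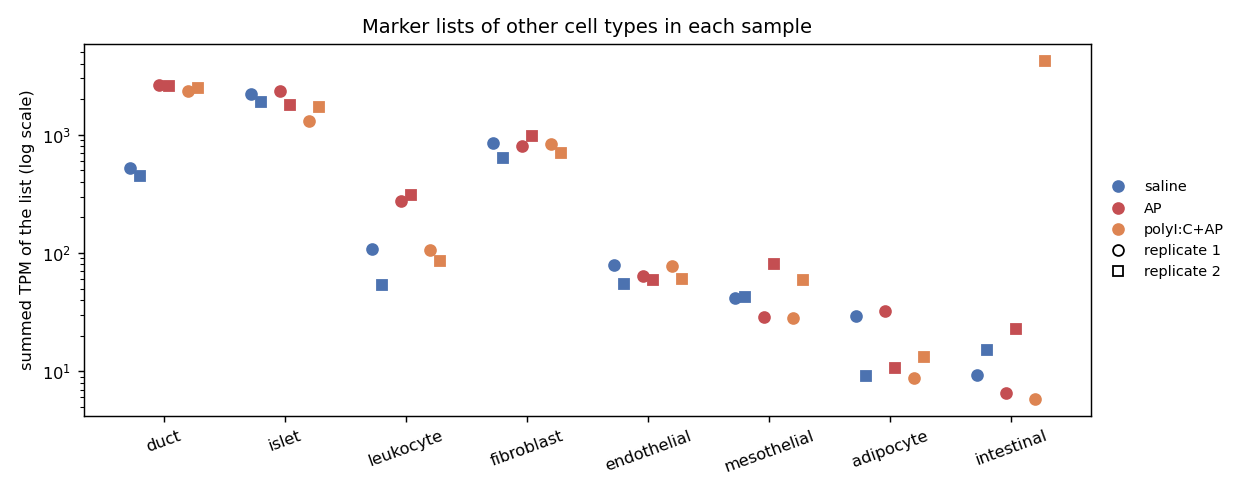
Summed TPM (y axis, log scale) of marker lists of other cell types (x axis) in each sample, with colors for the groups and circles and squares for replicates 1 and 2. Duct markers lay between 2334 and 2633 TPM in all 4 caerulein samples, leukocyte markers were highest in both AP samples, and intestinal markers reached 4210 TPM in replicate 2 of the polyI:C+AP group alone.

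The members could be ordered by how alike their patterns were over the 6 samples, measured as the root mean square difference of their centred log2 values, in which a small number means a like pattern. The closest pair was Gata4 and Gata6 (0.141), followed by Rbpjl and Gata4 (0.212) and Ptf1a and Nr5a2 (0.256), and the farthest was Rbpj and Bhlha15 (1.48). Among protein-coding genes that averaged 5 TPM or more, the patterns most like that of Bhlha15 were those of A1cf (0.160), Kcnd3 (0.249) and Tent5c (0.268). For Rbpjl they were Aldh1l1 (0.135), Tmem64 (0.143) and Ldhd (0.144), and for Ptf1a Lyplal1 (0.105), Lmo7 (0.124) and Ccnk (0.128). For Rbpj they were Adnp2 (0.0562), Bcl2l11 (0.0611) and Wdfy3 (0.0620), and for Nr5a2 Acsl3 (0.0414) and Ildr1 (0.0654). For Gata4 they were Tdh (0.0507), Tmem131l (0.0715) and Lama3 (0.0748), and Tdh lies on the same chromosome as Gata4, from 63492347 to 63509092. For Gata6 they were Slc39a9 (0.0871), Aplp1 (0.0894) and Gpc4 (0.0964). These are descriptions over 6 samples that share 3 treatments. For the members with small changes many other genes may lie about as close, and their number was not counted.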

How the data were processed

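RNA of 6 pancreas samples was sequenced by the authors as paired-end reads in one lane, and the labels name both a ribosomal depletion kit and a stranded mRNA kit. Per the labels and methods, adapters were removed by the authors with Trimmomatic, alignment to mm10 used STAR, gene counts came from htseq-count, and the authors used DESeq2 for their own calls. The deposited values were TPM, and how counts became TPM is not given in the sources used here. Of the 22556 listed genes, 22490 were found in GENCODE M21, which gave symbols and GRCm38 coordinates.

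Here TPM were tested as log2(TPM + 0.5) with limma 3.58.1 in R 4.3.3, with 1 coefficient per group over all 6 samples, variances moderated towards a trend on log2(mean TPM × exon length + 1), a mean of at least 1 TPM (16778 genes) and Benjamini-Hochberg adjustment over all tested genes. The script was tested on simulated data. Reads were estimated from the unit of TPM × exon length at which low values near whole multiples most exceeded the number expected by chance. At that unit 51.2% to 62.5% of low values lay within 0.1 of a whole multiple, against 19.3% to 20.5% with gene lengths shuffled. The 7 members, the gene lists and the naming rule were chosen with earlier results of these data known, and the intestinal list after the values were seen. Named genes were the members, list genes past the threshold, the leading markers and, for likeness, the 3 closest of 10398 genes per member, of which 1 is not reported here. From the lists of acinar products and Notch genes a few were singled out after their values were seen. As alternatives, the pseudocount, filter, scaling, prior and threshold were varied, besides voom on estimated reads, the replicate block and leaving out each sample, and for the lists the scaling and left-out samples were added after seeing the data.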

Additional observations from a re-analysis of the deposited data

How the results depend on the processing

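Of the member fold changes over all alternatives, 343 kept their direction and side of the threshold, 11 passed it, 15 lost it and 9 reversed. Many of the 343 could not reverse. The filter, prior, threshold, block, a fit of 2 groups alone and samples of a group not compared cannot move a fold change. In those settings only the call could differ. Reversed values were those of Ptf1a (-0.23 and -0.071) and Nr5a2 (-0.27 and -0.088) in AP against saline samples, with median-of-ratios scaling and with voom, and in polyI:C+AP against saline samples those of Gata4 (-0.41 with scaling, -0.24 with voom, -0.17 without saline replicate 2, -0.0075 without polyI:C+AP replicate 2, in a range of -0.17 to 0.26 with 1 sample left out) and Gata6 (0.079 without saline replicate 1, in a range of -0.36 to 0.079).

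In AP against saline samples 4 members passed with scaling and 5 by adjusted p alone, which called 6801 genes, and leaving out 1 sample gave 2 to 3 members and 2441 to 3758 genes. In polyI:C+AP against AP samples the 2 members became 1 with no filter, 1 with a prior following the mean and 0 with one prior for all genes. The 142 genes became 90, 28 and 41 in these settings, 331 with voom, 244 with the 2 groups alone, 731 by unadjusted p, and 0 to 122 with 1 sample left out (members 0 to 1). In polyI:C+AP against saline samples adjusted p alone called 6617 genes and 4 members, and leaving out 1 sample gave 2592 to 3433 genes and 0 to 2 members. The cause of these moves was not tested, beyond the fewer samples of a left-out fit.

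With the replicate number as a block, 27 of 27 values kept their call or count (3656, 127 and 3291 genes and 2, 2 and 1 members in the comparisons in the order above). Every group holds both replicate numbers, so the block cannot move a fold change, and only calls and counts could differ. Same-numbered samples did not deviate together (correlations of 0.0069, -0.0045 and 0.034), so the numbers give no pairing. With 1 sample left out, the difference in the Gata4 to Gata6 ratio between AP and saline samples ranged from -0.20 to -0.05. The saline libraries had the fewest estimated reads over the listed genes, so low levels were measured least precisely there. The full size of each library was not estimated.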
